A study of Rattus norvegicus with 6 samples.

Results

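Kinesins are motor proteins that use ATP to move along microtubules, and most of them walk towards the growing ends, which in an axon lie away from the cell body. A sensory neuron makes nearly all of its proteins and organelles in a cell body in the ganglion and depends on kinesins to carry them along its axon to the skin and the spinal cord. Other kinesins serve cilia, and a further group builds and pulls apart the spindle of dividing cells. Human mutations in KIF5A and KIF1A cause inherited disease of long axons.

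The genes described here are the 37 rows, of 22536 in the deposited table, whose name is Kif followed by a number and at most a letter from a to c. They fall into 12 kinesin subfamilies. RNA was sequenced from 3 male rats with painful diabetic neuropathy (PDN), and from 3 male control rats. Their labels give the tissue as sensory neuron, and the title of the series names the dorsal root ganglion. The sources used here do not give strain, age, the way diabetes was induced or any treatment of the controls. The design text counts 3 rats for each group, so each library was taken as an animal.

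Levels are FPKM, fragment numbers scaled to transcript length and to the size of the library, a scale on which genes of different length can be compared. Constants that link the deposited tables would correspond to 54702000 to 60814000 fragments per PDN library and 51856000 to 62791000 per control library. This takes the constant as the library size that scales FPKM, which could not be checked, so these depths are inferred. All 20 sensory neuron markers examined were above the detection filter, and summed to 9233 to 10380 FPKM in PDN and 9346 to 10680 FPKM in controls. Other cells of a ganglion were present too. The 10 Schwann cell markers summed to 3413 to 4093 FPKM in PDN and 3413 to 4211 FPKM in controls. Skeletal muscle RNA stood out in PDN 3 and control 2: the 10 muscle markers found summed to 187 FPKM in PDN 3 and 591 FPKM in control 2, against 34.8 FPKM in PDN 1 and 1.94 to 2.20 FPKM in the other libraries. Markers of several other cell types had mostly lower estimates in PDN, though 0 genes passed the adjusted threshold. Over all tested genes 43.35% of estimates were higher in PDN. Estimates were lower for 8 of 8 fibroblast, 7 of 7 pericyte and smooth muscle, 4 of 4 red blood cell, 7 of 8 macrophage, 8 of 10 satellite glia and 6 of 7 endothelial markers tested, with medians of -0.21, -0.32, -0.82, -0.23, -0.20 and -0.20 in that order. Of these sums, that of the fibroblast markers did not overlap between groups, at 333 to 373 FPKM in PDN and 389 to 429.8 FPKM in controls. An unadjusted limma p under 0.05 was met by 4.72% of all tested genes. Among markers it was met by 3 fibroblast, 2 pericyte and smooth muscle, 2 red blood cell and 4 macrophage genes. It was also met by 3 satellite glia, 3 endothelial and 1 Schwann cell gene, and by 0 sensory neuron and 0 skeletal muscle genes. All but 1 endothelial gene had lower estimates in PDN. Whether the mix of cells bears on the kinesin levels was not tested. In such bulk tissue, fewer cells of a type and less RNA per cell cannot be told apart.

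Upstream sequences are shown for the 2 most abundant members, Kif1b and Kif1a, and for 2 division motors picked because they hold the letters of a cell cycle element, Kif23 and Kif22. They are examples and do not stand for their classes. RefSeq promoters of the GRCr8 build, from 250 bases before to 50 bases after the gene start, were matched to 29 of the 37 members by symbol. Each line gives the 250 bases before the start, 5′ to 3′ on the strand of the gene, which is the minus strand for these 4. Capitals mark TTTGAA or TTCGAA, the letters of the cell cycle element CHR, and CCAAT, each on either strand, where CCAAT reads ATTGG and TTTGAA reads TTCAAA. The CHR element is known in human and mouse cells as the place where division genes are silenced in resting cells. Kif23 encodes a motor of the central spindle and Kif22 a motor on chromosome arms. Kif1a and Kif1b encode vesicle and organelle carriers of axons. The stretches lie at chr8:71320585-71320834 (Kif23), chr1:191080879-191081128 (Kif22), chr9:101094778-101095027 (Kif1a) and chr5:165025849-165026098 (Kif1b).
Kif23: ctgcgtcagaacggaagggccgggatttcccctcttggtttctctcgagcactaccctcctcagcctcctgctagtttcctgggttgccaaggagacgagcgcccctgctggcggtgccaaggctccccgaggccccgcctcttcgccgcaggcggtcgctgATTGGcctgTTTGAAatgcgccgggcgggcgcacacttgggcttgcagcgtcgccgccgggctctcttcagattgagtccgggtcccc
Kif22: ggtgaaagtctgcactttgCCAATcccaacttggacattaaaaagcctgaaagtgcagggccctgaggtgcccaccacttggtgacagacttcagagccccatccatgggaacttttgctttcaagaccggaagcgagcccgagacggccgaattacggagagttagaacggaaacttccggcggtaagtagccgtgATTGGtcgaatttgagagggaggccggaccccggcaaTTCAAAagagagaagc
Kif1a: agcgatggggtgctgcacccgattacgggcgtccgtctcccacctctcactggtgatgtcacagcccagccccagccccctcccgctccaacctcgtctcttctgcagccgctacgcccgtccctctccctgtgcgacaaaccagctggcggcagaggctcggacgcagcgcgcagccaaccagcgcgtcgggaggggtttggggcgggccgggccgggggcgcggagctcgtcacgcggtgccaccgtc
Kif1b: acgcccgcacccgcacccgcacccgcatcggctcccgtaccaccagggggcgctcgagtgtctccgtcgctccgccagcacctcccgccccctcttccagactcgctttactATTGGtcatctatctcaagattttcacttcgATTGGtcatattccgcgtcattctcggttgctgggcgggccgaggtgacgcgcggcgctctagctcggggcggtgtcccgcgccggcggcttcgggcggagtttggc

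In Kif23 the CHR letters begin 79 bases before the start, with ATTGG beginning 88 bases before it. In Kif22 they begin 16 bases before the start, on the opposite strand, with ATTGG beginning 53 bases before it. Kif1b has ATTGG at 138 and 107 bases and no CHR letters, and Kif1a has neither. Over whole 300-base promoters, 5 of the 10 mitotic motors with an entry (Kif15, Kif20b, Kif22, Kif23 and Kif4a) hold CHR letters, as do 0 of the 12 axonal transport motors with an entry. The other 5 mitotic promoters, of Kif11, Kif18a, Kif18b, Kif20a and Kif2c, have none. Over all kinesins with an entry the share is 24.14% (7 of 29), near the 19.74% of all 33469 RefSeq promoters of that length, and no difference between the classes was tested. CCAAT letters are in 6 of 10 mitotic and 3 of 12 axonal promoters, against 37.49% of all. The median number of CG pairs per promoter was 26.5 in mitotic and 27.5 in axonal motors, against 7 over all promoters. These are matches of letters, not binding sites.

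Expression of the family was dominated by motors of axonal transport. Summed over the 37 members, kinesin RNA came to 1531, 1415 and 1360 FPKM in PDN 1 to 3, against 1493, 1333 and 1414 FPKM in controls 1 to 3. This was 0.394% to 0.451% of all FPKM in PDN and 0.382% to 0.425% in controls. The 6 most abundant members, Kif1b, Kif1a, Kif5a, Kif21a, Kif5c and Kif5b, made up 82.8% ± 0.742 of the kinesin sum in PDN and 81.8% ± 0.917 in controls (mean ± SD of 3 rats in each group). By mean level over the 6 libraries, Kif1b ranked 104 among all 22536 genes, and the sixth member, Kif5b, ranked 468. The 15 axonal transport motors summed to 1380 ± 90.3 FPKM in PDN and 1360 ± 79.0 FPKM in controls (mean ± SD of 3 rats in each group), and the 11 mitotic motors to 5.67 ± 0.904 FPKM in PDN and 6.35 ± 0.584 FPKM in controls. PDN and control rats overlapped in all these sums.

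**Figure D1:**
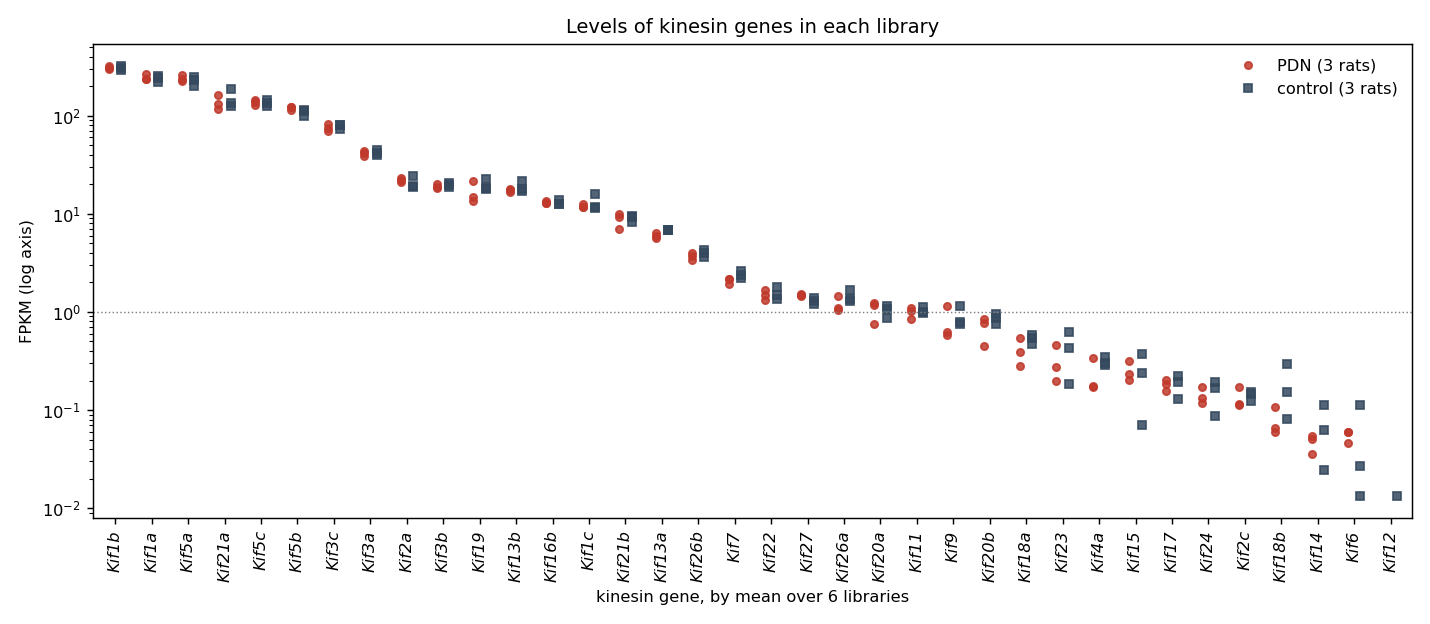
FPKM on a log axis of the 36 kinesin genes with a value above 0, in each PDN library (circles) and each control library (squares), ordered by mean level; values of 0 are not drawn. Levels run from about 300 FPKM for Kif1b to under 1 FPKM for most division motors, and the PDN and control points of a gene lie close together beside that range.

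The comparison of PDN with control rats was made with limma on log2(FPKM + 1), over the 13282 genes with at least 1 FPKM in at least 3 libraries. No kinesin gene passed it. Of the 37 members, 23 were tested and 14 were under the filter. Among the 23, 0 had an adjusted p under 0.05 (Benjamini-Hochberg over all tested genes), with adjusted p-values of 0.999 to 1. The background share was 0%, since 0 of 13282 genes passed. At an unadjusted limma p under 0.05 there were 0 members, against 4.72% of all tested genes (627). Estimates were higher in PDN for 9 members and lower for 14. Among the 14 tested axonal transport motors these counts were 6 and 8. Higher estimates made up 39.13% of the tested members, beside 43.35% of all tested genes. That 43.35% is also the background for counts of higher and lower estimates in other lists. The median difference of the 23 was -0.03 on the log2 scale, beside -0.02 over all tested genes, and the extremes were 0.14 (Kif5b) and -0.24 (Kif19). Among the 14 members with a mean of at least 10 FPKM, the median absolute difference was 0.0702, beside 0.0573 over the 6357 tested genes at that level. The 95% intervals of these 14 reached down to -0.648 and up to 0.329, so with 3 rats a group differences of such sizes remain possible.

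**Figure D2:**
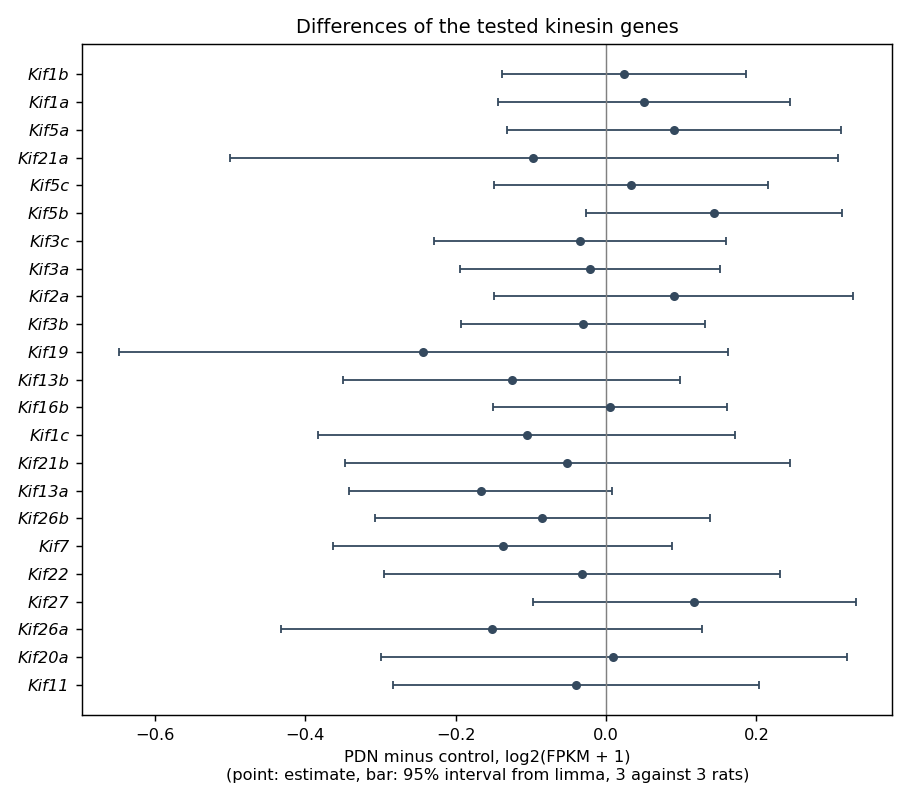
Difference of each of the 23 tested kinesin genes, PDN minus control, in log2(FPKM + 1), with its 95% interval from limma, ordered from the most to the least abundant. All 23 intervals include 0; the widest belong to Kif19 and Kif21a.

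Kinesin-1 carries vesicles, mitochondria and neurofilaments outwards, and its heavy chains are encoded by Kif5a and Kif5c, which are mostly neuronal, and by Kif5b, which is found in most tissues. Kif5a (chromosome 7, 70513343 to 70556827 in the coordinates of the deposited table, whose build is not stated) was at 260, 234 and 224 FPKM in PDN 1 to 3, against 245, 201 and 229.5 FPKM in controls 1 to 3. The groups overlapped, and PDN 1 was the highest and control 2 the lowest. Its difference was 0.09 ± 0.09 (SE), with a 95% interval of -0.132 to 0.313. The difference of Kif5a came to 0.01 without control 2 and 0.03 without PDN 1. Its row overlaps that of Dctn2, a dynactin gene at a mean of 112 FPKM, and fragments of overlapping genes may be shared between them.

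Kif5b was at 123, 122 and 113 FPKM in PDN, against 114, 110.3 and 100.2 FPKM in controls. Only the lowest PDN rat lay within the control range. The difference of Kif5b, 0.14 ± 0.07 (SE), was the highest estimate of the family, with a 95% interval of -0.0262 to 0.314. Without control 3 it came to 0.09. Kif5c was at 144, 138 and 129.6 FPKM in PDN, against 133, 124 and 145 FPKM in controls, with a difference of 0.03 ± 0.08 (SE). The range of the controls enclosed all 3 PDN values of Kif5c. Within the kinesin-1 sum, Kif5a made up 48.3% ± 1.06 in PDN and 48.1% ± 1.80 in controls, and Kif5b 24.1% ± 0.711 in PDN and 23.2% ± 2.09 in controls. Kif5c made up the remaining 27.6% ± 0.346 in PDN and 28.7% ± 1.73 in controls (mean ± SD of 3 rats in each group). PDN and control rats overlapped in all 3 shares.

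**Figure D3:**
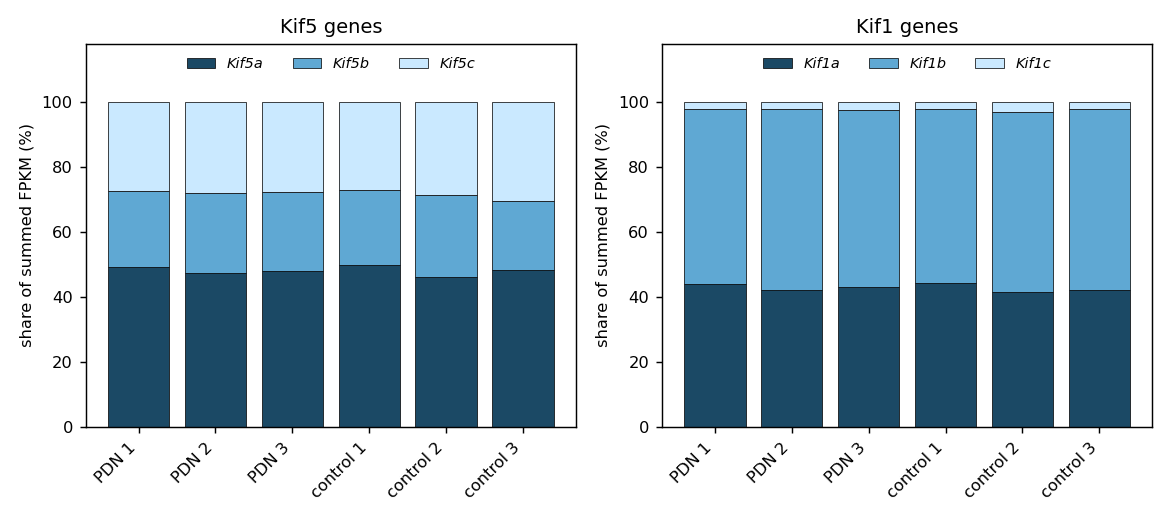
Share of each gene in the summed FPKM of Kif5a, Kif5b and Kif5c (left) and of Kif1a, Kif1b and Kif1c (right), in percent, for each of the 6 libraries. Kif5a holds 46.2% to 49.8% of its sum and Kif1b 53.7% to 55.9% of its sum in every library, with PDN and control bars alike.

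The partners of kinesin-1 gave a like picture. Light chains link the heavy chains to cargo. With KAP, the partner of kinesin-2, 4 of their 5 genes were tested, 4 had a higher estimate in PDN and 0 passed. Klc1, the most abundant, was at 432.5, 374 and 403.5 FPKM in PDN, against 443, 335 and 332 FPKM in controls, with a difference of 0.14 ± 0.12 (SE, limma adjusted p = 0.999). The ratio of summed heavy to summed light chains was 0.997 ± 0.0609 in PDN and 1.03 ± 0.116 in controls (mean ± SD of 3 rats in each group). Among 25 tested cargo adaptors and regulators, 7 estimates were higher and 18 lower in PDN. Over all tested genes 43.35% were higher. The median of the 25 was -0.02, and 0 passed. Rab3a, the most abundant of the 25, was at 167 ± 8.11 FPKM in PDN and 164 ± 26.9 FPKM in controls.

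Kinesin-3 motors are fast carriers of vesicles. Kif1a moves synaptic vesicle precursors and dense-core vesicles, and Kif1b has isoforms known in mice for carrying mitochondria or synaptic vesicle precursors. Kif1b (chromosome 5, 165938576 to 166133491) was the most abundant kinesin gene in all 6 libraries, at 324, 309 and 296.5 FPKM in PDN, against 303, 290.4 and 320.2 FPKM in controls. Its difference was 0.02 ± 0.07 (SE), with a 95% interval of -0.139 to 0.186. Kif1a (chromosome 9, 100171772 to 100253609) was at 265, 234.5 and 234.6 FPKM in PDN, against 250.4, 217.5 and 241 FPKM in controls, a difference of 0.05 ± 0.08 (SE). For both genes PDN 1 was the highest and control 2 the lowest, and the groups overlapped. The lowest value of Kif1b, 290.4 FPKM, was above the highest of Kif1a, 265 FPKM, while Kif1a and Kif5a shared a range.

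Of the 6 most abundant kinesins, 4 were highest in PDN 1 and 4 were lowest in control 2. The marker sums of neurons ran partly along: they were highest in control 1 (10680 FPKM) and PDN 1 (10380 FPKM), and lowest in PDN 2 (9233 FPKM) and control 2 (9346 FPKM). All 20 neuron markers were tested, 11 with a higher and 9 with a lower estimate in PDN, and 0 of the markers were at 0. The part of neuron content in the levels of single libraries was not tested.

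The other kinesin-3 genes were less abundant. Kif13b, known in mouse Schwann cells for a role in myelination, was at 16.5, 17.8 and 17.3 FPKM in PDN, against 17.2, 21.8 and 17.9 FPKM in controls. Kif1c, a widely expressed carrier, was at 11.6, 11.8 and 12.4 FPKM in PDN, against 11.8, 15.8 and 11.6 FPKM in controls. In both genes control 2 stood above the other 5 libraries. That library was rich in muscle RNA. It also held the highest sums of the Schwann cell, satellite glia, fibroblast, endothelial, and pericyte and smooth muscle markers. Kif13b in PDN 3, the other muscle-rich library, lay within the range of the remaining libraries. Kif1c in PDN 3, at 12.4 FPKM, lay second to control 2 and above the remaining libraries (11.6 to 11.8 FPKM). The part of cell content in the levels of Kif13b and Kif1c was not tested. The difference of Kif13b was -0.13 ± 0.10 (SE) and that of Kif1c -0.11 ± 0.12 (SE). Without control 2 these became -0.0275 for Kif13b and 0.0297 for Kif1c, where the sign turned. Kif16b, a motor of early endosomes, had the smallest spread of the 14 genes at or above 10 FPKM, with a coefficient of variation of 3.21% over the 6 libraries. It was at 12.8, 13.4 and 12.9 FPKM in PDN, against 12.7, 13.7 and 12.6 FPKM in controls.

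Kif13a, which carries endosomal cargo, came closest to a difference. It was at 5.93, 5.66 and 6.37 FPKM in PDN, against 6.76, 6.86 and 6.90 FPKM in controls, so that all 3 PDN rats lay below all 3 controls. The estimate of -0.17 ± 0.07 (SE; limma adjusted p = 0.999) had a 95% interval of -0.342 to 0.00807. Complete separation of PDN from control rats occurred in 3 of the 23 tested members (13%), against 9.93% of all tested genes. The others were Kif7 and Kif27, which were named, like Kif13a, after their values were seen. Kif7, a kinesin of the ciliary tip in Hedgehog signalling, was at 2.19, 2.18 and 1.91 FPKM in PDN, against 2.19, 2.63 and 2.40 FPKM in controls. The nearest PDN and control rats of Kif7 differed only in the third decimal. Kif27, a close relative of Kif7, was at 1.47, 1.46 and 1.51 FPKM in PDN, against 1.28, 1.37 and 1.21 FPKM in controls, the opposite direction. The share of 13% rests on 3 genes and is near the background.

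Kinesin-2 is assembled from Kif3a with either Kif3b or Kif3c, and moves vesicles in axons and, as the Kif3a and Kif3b form, cargo into cilia. Kif3c was the most abundant of them, at 82.9, 75.5 and 68.9 FPKM in PDN, against 80.1, 73.1 and 79.3 FPKM in controls. Kif3a was at 41.9, 43.8 and 38.4 FPKM in PDN, against 44.5, 41.4 and 40.0 FPKM in controls. Kif3b was at 18.6, 18.4 and 20.1 FPKM in PDN, against 19.5, 18.5 and 20.4 FPKM in controls. In all 3 genes the groups overlapped, and the differences were -0.04 ± 0.08 (Kif3c), -0.02 ± 0.07 (Kif3a) and -0.03 ± 0.07 (Kif3b; SE). The RNA of Kif3b plus Kif3c was 2.29 ± 0.141 times that of Kif3a in PDN and 2.31 ± 0.154 times in controls. Kif3c exceeded Kif3b by a ratio of 4.0 ± 0.529 in PDN and 3.98 ± 0.119 in controls (mean ± SD of 3 rats in each group). Kif17, a motor of dendrites and cilia that pairs with itself, was under the filter at 0.157 to 0.202 FPKM in PDN and 0.130 to 0.221 FPKM in controls.

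Some kinesin-4 motors restrain the growth of microtubules as well as moving along them. Kif21a, in which human mutations misroute nerves of the eye muscles, was at 163, 132 and 117 FPKM in PDN, against 185, 133 and 126 FPKM in controls. Its FPKM spread between libraries was wide, with a coefficient of variation of 18.3% against 4.26% to 8.58% in the other 5 most abundant kinesins. The second deposited table followed the FPKM of Kif21a unevenly between libraries, as given under other observations. PDN 1 and control 1 were the high libraries, and the groups overlapped. The difference was -0.10 ± 0.17 (SE), with a 95% interval of -0.501 to 0.308. Kif21b, its relative, was at 9.91, 7.01 and 9.18 FPKM in PDN, against 9.57, 8.18 and 9.22 FPKM in controls. The ratio of Kif21a to Kif21b was 16.0 ± 3.08 in PDN and 16.4 ± 2.88 in controls (mean ± SD of 3 rats in each group).

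Kif2a, a kinesin-13 that takes microtubules apart at their ends, was at 23.1, 22.1 and 20.9 FPKM in PDN, against 24.1, 18.9 and 19.3 FPKM in controls. The groups overlapped, with control 1 the highest of the 6, and the difference was 0.09 ± 0.10 (SE), or 0.03 without control 2. Kif26b and Kif26a are kinesin-11 genes known from organ development in mice. Kif26b was at 3.96, 3.34 and 3.74 FPKM in PDN, against 4.28, 3.6 and 4.02 FPKM in controls, a difference of -0.09 ± 0.10 (SE). Kif26a was at 1.04, 1.45 and 1.11 FPKM in PDN, against 1.28, 1.37 and 1.68 FPKM in controls.

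Kif19, whose mouse protein shortens microtubules at the tips of cilia, was the 1 kinesin-8 gene above the filter and had the lowest estimate of the family. It was at 13.5, 14.8 and 21.6 FPKM in PDN, against 18.0, 22.6 and 18.1 FPKM in controls. PDN 1 and PDN 2 lay below all controls, and PDN 3 lay second highest of the 6. The difference came to -0.24 ± 0.17 (SE; limma adjusted p = 0.999), and its 95% interval ran from -0.648 to 0.162. The high libraries, control 2 and PDN 3, were also those with the highest sums of the Schwann cell markers, at 4093 FPKM in PDN 3 and 4211 FPKM in control 2, against 3413 to 3555 FPKM in the other 4. They were the muscle-rich libraries as well, and held the highest sums of satellite glia markers (2037 FPKM in PDN 3 and 2129 FPKM in control 2) and of pericyte and smooth muscle markers (84.2 FPKM in PDN 3 and 105.3 FPKM in control 2). All 10 Schwann cell markers were tested, 5 with a higher and 5 with a lower estimate in PDN, and 0 were listed at 0. Without these libraries the difference of Kif19 was -0.33, with a limma adjusted p of 0.948, and without PDN 3 alone it was -0.44, with a limma adjusted p of 0.672. It was -0.12 without PDN 1 and -0.14 without control 2, each with an adjusted p of 1, so single libraries moved it in both directions. The part of Schwann cell, glia, pericyte or muscle content in the level of Kif19 was not tested.

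**Figure D4:**
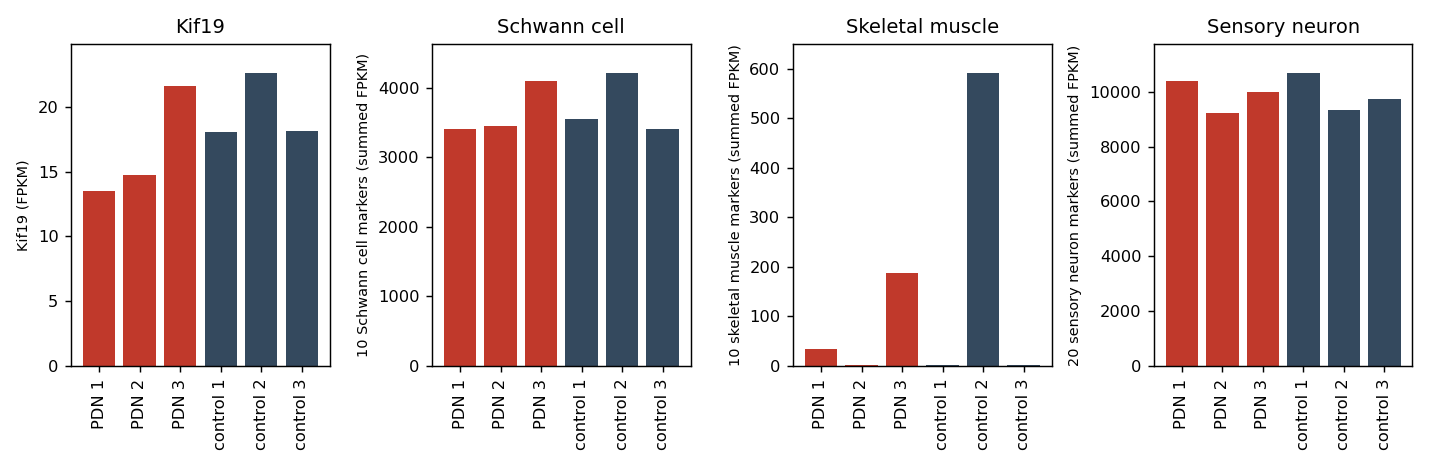
Kif19 in FPKM, and the summed FPKM of Schwann cell, skeletal muscle and sensory neuron markers, as 1 bar for each PDN library (left 3) and each control library (right 3). Kif19 and the Schwann cell sum are both highest in PDN 3 and control 2, the libraries that also hold most muscle RNA.

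Motors of cell division were low, with all 11 below 2 FPKM in each library. Of 11 mitotic motors, 3 were tested, 1 with a higher and 2 with a lower estimate in PDN. Kif22 was at 1.48, 1.32 and 1.68 FPKM in PDN, against 1.5, 1.35 and 1.81 FPKM in controls. Kif11, the motor that pushes spindle poles apart, was at 0.839, 1.01 and 1.09 FPKM in PDN, against 0.998, 0.972 and 1.13 FPKM in controls. Kif20a, needed to complete division, was at 1.24, 0.754 and 1.18 FPKM in PDN, against 1.08, 0.866 and 1.16 FPKM in controls. Their differences were -0.03 ± 0.11 (Kif22), -0.04 ± 0.10 (Kif11) and 0.01 ± 0.13 (Kif20a; SE), and the groups overlapped in each. The Kif20a row overlaps that of Cdc23 (mean 18.1 FPKM) and the Kif22 row overlaps 3 others, of which the highest had a mean of 6.75 FPKM, so the levels of these motors are uncertain.

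The other 8 mitotic motors were under the filter. Kif20b, a motor of cytokinesis, had a mean of 0.689 FPKM in PDN and 0.854 FPKM in controls. Kif18a, which sets the length of microtubules at kinetochores, had 0.405 FPKM in PDN and 0.533 FPKM in controls. The values of Kif23 were 0.198, 0.275 and 0.464 FPKM in PDN, against 0.627, 0.431 and 0.185 FPKM in controls. In Kif23 the rats of both groups covered much the same range, with a control the highest and a control the lowest. The means of Kif4a, Kif15, Kif2c, Kif18b and Kif14 lay between 0.0470 and 0.250 FPKM in PDN and between 0.0663 and 0.313 FPKM in controls. Of these, Kif4a was at 0.229 FPKM in PDN and 0.313 FPKM in controls, Kif15 at 0.250 FPKM in PDN and 0.227 FPKM in controls, and Kif2c at 0.134 FPKM in PDN and 0.141 FPKM in controls. Kif18b was at 0.0775 FPKM in PDN and 0.176 FPKM in controls, and Kif14 at 0.0470 FPKM in PDN and 0.0663 FPKM in controls. No division motor had a library above 1.81 FPKM, the value of Kif22 in control 3. Of 21 mitotic genes other than kinesins found in the table, 4 were tested, with 1 higher and 3 lower estimates and 0 past the threshold. Racgap1, which acts with Kif23 in the central spindle, was the most abundant of these, at 4.73, 5.59 and 4.76 FPKM in PDN, against 5.96, 5.44 and 4.17 FPKM in controls.

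Apart from Kif19, described above, the ciliary kinesins outside kinesin-2 were scarce. Kif7 and Kif27 were at 1.21 to 2.63 FPKM in single libraries, and Kif9, Kif24 and Kif6 were under the filter. Kif9 was at 1.16, 0.585 and 0.626 FPKM in PDN, against 1.15, 0.793 and 0.759 FPKM in controls, with the first rat of each group the high one. Kif24, which acts at the base of cilia, stayed at or below 0.194 FPKM and Kif6 at or below 0.112 FPKM in all 6 libraries. Kif12 was listed at 0 in 5 libraries and at 0.0133 FPKM in control 1, and Kif2b was listed at 0 in all 6. Among 18 tested intraflagellar transport genes, the cargo trains of cilia, 6 estimates were higher and 12 lower in PDN. Over all tested genes 43.35% were higher. The median of the 18 was -0.02, and 0 passed. The most abundant, Ift52, was at 16.7 ± 1.52 FPKM in PDN and 17 ± 0.858 FPKM in controls. Ift22 was the 1 gene of the 18 with an unadjusted limma p under 0.05, a limit met by 4.72% of all tested genes. It was at 9.82, 8.79 and 8.29 FPKM in PDN, against 10.1, 12.9 and 10.1 FPKM in controls (limma adjusted p = 0.999).

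Dynein with its activator dynactin carries cargo the other way, back to the cell body. Of 26 tested genes of this system, 14 had a higher and 12 a lower estimate in PDN, with a median of 0.00 (0.0046), and 0 passed. Pafah1b1, the dynein regulator LIS1, was the most abundant, at 357 ± 12.7 FPKM in PDN and 361 ± 17.2 FPKM in controls (mean ± SD of 3 rats in each group). Bicd2, an adaptor between dynein and its cargo, was the 1 gene of the 26 with an unadjusted limma p under 0.05. Over all tested genes 4.72% were under that limit. Bicd2 was at 31.4, 28.7 and 29.7 FPKM in PDN, against 25.6, 23.8 and 25.0 FPKM in controls. Its difference was 0.26 ± 0.06 (SE), and with an adjusted p of 0.811 in limma it did not pass.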

How the data were processed

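The authors deposited an FPKM table and a second table of whole numbers named for read counts, both of 22536 genes. Per the labels' protocols, RNA was taken with Trizol and 1 µg entered strand-specific libraries of the long noncoding RNA kind. The sources used here do not give the aligner, quantifier, annotation, build or the use of strand in counting. The second deposited table was treated as a score. Among its values over 1000, 54.5% to 54.8% equalled, within a relative tolerance of 0.001, FPKM times genomic span times 1 constant per library, and 0 exceeded it. Fragments per gene could not be recovered, so no counting interval is given.

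Genes that reached 1 FPKM in 3 or more libraries were tested with limma 3.58.1 (R 4.3.3) on log2(FPKM + 1), with an intensity trend and the group as the only term. This scale understates changes of low genes. The test was checked on simulated data with changes larger than any kinesin estimate here. That check does not show whether changes as small as those of the kinesins would be found. Members with a mean of at least 10 FPKM, those with an unadjusted p under 0.05 and the most abundant of each subfamily were to be given in full; further members were named after their values were seen. From the lists of partners, dynein, mitotic and intraflagellar genes, the most abundant gene and genes with an unadjusted p under 0.05 are named. Cell type markers are given as sums and counts. The members and lists were chosen with earlier results of these data known. Alternatives were pseudocount, filter, scaling, replicate block, the second table and left-out libraries. Sequences are from RefSeq (GRCr8).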

Additional observations from a re-analysis of the deposited data

How the results depend on the processing

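Under 14 alternatives, 0 kinesin genes passed the adjusted threshold in limma, and the smallest adjusted p of any was 0.672; the unadjusted count was 0 to 2. The count over all genes, 0 as reported, was 1 without a filter, 2 in the whole-number table, 9 without control 2 and PDN 3, and 0 to 6 when each library was left out. The kinesin median of -0.03 lay between -0.0519 and -0.01 with 1 library left out. Non-overlapping kinesins numbered 1 with the stricter filter (8.91% of all genes), 2 with median-of-ratios scaling (9.83%), 4 in the whole-number table (9.55%), 9 without control 2 and PDN 3 (29.4%) and 3 to 6 with 1 library left out (16.9% to 24.1%), fewer rats making separation easier. Deviations of same-numbered rats correlated at r = 0.171, -0.12 and -0.086, within the range of the other pairs, -0.219 to 0.269. In this balanced design a replicate block leaves each estimate, and so the median of -0.0322, unchanged by construction. The 3 non-overlapping members do not depend on the block either. With the block there were 0 calls, and the smallest limma adjusted p among members was 0.769. Over all tested genes, 849 had an unadjusted limma p under 0.05 with the block, against 627 without it.

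Of 315 differences of single members recomputed, 28 turned sign, in 13 of the 23 members. The 315 include those under the other filters and the replicate block, where the estimate of a gene cannot change. The share that turned sign is therefore understated. Kif22 became 0.0885 in the whole-number table and Kif3a 0.00072 with median-of-ratios scaling. Without control 2 and PDN 3, Kif3a became 0.0207, Kif1c 0.00218 and Kif20a -0.0965. Leaving out 1 library gave -0.08 to 0.0115 for Kif11, -0.0132 to 0.0404 for Kif16b, -0.00755 to 0.0937 for Kif1a, -0.0104 to 0.0599 for Kif1b, -0.179 to 0.0297 for Kif1c, -0.0568 to 0.121 for Kif20a, -0.226 to 0.0758 for Kif21a, -0.142 to 0.0799 for Kif21b, -0.0896 to 0.0388 for Kif22, -0.0622 to 0.0293 for Kif3a, -0.0695 to 0.00156 for Kif3b, -0.101 to 0.0307 for Kif3c and -0.0205 to 0.089 for Kif5c. The cause of these changes was not tested. Signs of Kif5a, Kif5b, Kif2a, Kif27, Kif13a, Kif13b, Kif7, Kif19, Kif26a and Kif26b held in all alternatives in which they were tested, but sizes moved. With 1 library left out, Kif5a gave 0.0122 to 0.154, Kif5b 0.09 to 0.184, Kif2a 0.028 to 0.198 and Kif27 0.0916 to 0.145. Kif13a gave -0.206 to -0.133, Kif13b -0.189 to -0.0275 and Kif7 -0.184 to -0.0913. Kif19 gave -0.436 to -0.117, Kif26a -0.233 to -0.084 and Kif26b -0.139 to -0.0323. With 3 rats a group, differences of the sizes covered by the intervals given remain possible.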

Other observations

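Kinesin genes that the name rule leaves out lay in the same range. The C-terminal motor gene Kifc2 was at 6.58, 6.71 and 7.08 FPKM in PDN, against 5.72, 6.32 and 6.26 FPKM in controls. All 3 PDN rats lay above all 3 controls in Kifc2, and groups were separate in 9.93% of all tested genes. The difference of Kifc2 was 0.13 ± 0.08 (SE, limma adjusted p = 0.999). Kifc3 was at 2.99 to 3.54 FPKM in PDN and 3.23 to 3.6 FPKM in controls. Kifc1 was at 0.508 to 0.652 FPKM in PDN and 0.457 to 0.583 FPKM in controls, and Kif28p stayed at or below 0.0318 FPKM. Cenpe, a motor of chromosome attachment, was at 0.364 to 0.447 FPKM in PDN and 0.427 to 0.622 FPKM in controls. Kif1bp, which encodes a protein that binds kinesins and no motor, was at 26.6 to 29.4 FPKM in PDN and 26.5 to 30.5 FPKM in controls.

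The 2 deposited tables relate to each other differently from gene to gene. The whole-number value of Kif21a was 66.5%, 71.7% and 82.2% of the product of FPKM, genomic span and library constant in PDN 1 to 3, against 65.2%, 71.3% and 76.3% in controls 1 to 3. These percentages are low where the FPKM of Kif21a is high (PDN 1 and control 1). Of the 21 members at or above 1 FPKM in all libraries, Kif22 also varied, with 57.7% to 60.4% in PDN and 49.8% to 57.0% in controls, while Kif1b stayed between 21.5% and 22.0% and Kif1a at 100%. What sets these percentages was not tested.

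For 6 of the 37 members (Kif5a, Kif7, Kif15, Kif19, Kif20a and Kif22) the locus overlaps that of another row in the table.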
